A study of Mus musculus with 30 samples.

Results

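The molecular circadian clock was followed in the hippocampus of 30 male BALB/c mice through 10 of its genes, namely Arntl, Clock, Npas2, Per1, Per2, Per3, Cry1, Cry2, Nr1d1 and Dbp. They were taken by symbol from the 21412 genes with normalized read counts, and all 10 were found, each with one identifier. The set of genes was chosen by symbol after the values of Per2 had been seen to differ between the LD and Ctr groups, so that comparison is described here without a test. There were 6 groups of 5 mice each. Ctr mice were fed an unspiked AIN-93G diet with added cysteine, LD mice the same base with 0.28 mg methylmercury (MeHg, an organic form of mercury that enters the brain) per kg feed, and HD mice with 5 mg per kg. Se_Ctr, Se_LD and Se_HD are labelled as the same 3 treatments with selenium, which the title of the series names as selenium-methionine. The dose of selenium is not given in the sources used here. The Ctr, LD and HD mice arrived at 2 to 3 weeks of age, were acclimatized for 5 days, were individually housed under 12 h of light and 12 h of dark and ate their diets for 11 weeks. For the selenium mice these details are not given in the sources used here. The time of day at which each mouse was killed is not given in the sources used here. Nothing in the labels ties mice of different groups to one litter or day.

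The clock of mammalian cells is a loop of transcription and translation that takes about a day. The activators CLOCK or NPAS2 pair with ARNTL (also called BMAL1), bind E-box elements and switch on the Period and Cryptochrome genes, whose proteins return to the nucleus and repress the activators. In a second loop the same activators drive Nr1d1, whose product REV-ERB alpha represses Arntl through ROR elements. The output gene Dbp is also driven through E-boxes, and its protein binds D-boxes in other clock genes. Over a day Arntl therefore peaks in opposite phase to Dbp, Nr1d1 and Per3. The central pacemaker is the suprachiasmatic nucleus, and the hippocampus holds a peripheral clock. Per1 and Per2 also respond quickly to signals from outside the loop, among them cAMP signalling and glucocorticoids.

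The promoter stretches below are shown because they hold letters of the elements through which the loop is known to act. Each is the 250 bases before an annotated start, printed 5′ to 3′ on the gene's own strand, from RefSeq on build GRCm38.p6, and capitals mark the motif. The motifs searched, on both strands, were CACGTG (E-box), CACGTT (a weaker E-box variant, read as AACGTG on the other strand), TTATGTAA (D-box), TAGGTCA (core of a ROR element) and TGACGTCA (cAMP response element). Of the 10 genes, 9 had at least 1 annotated start window of 300 bases, and Per2 had none.
Per3, chr4:151044666-151044915, minus strand, with 2 D-boxes that begin at positions -205 and -158 from the start: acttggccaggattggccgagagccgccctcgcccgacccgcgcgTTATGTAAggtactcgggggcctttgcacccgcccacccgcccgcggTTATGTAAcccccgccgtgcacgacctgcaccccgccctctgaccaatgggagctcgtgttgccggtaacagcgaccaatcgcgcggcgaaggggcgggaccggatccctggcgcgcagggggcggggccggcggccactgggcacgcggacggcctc
Nr1d1, chr11:98775378-98775627, minus strand, with the E-box variant at position -28: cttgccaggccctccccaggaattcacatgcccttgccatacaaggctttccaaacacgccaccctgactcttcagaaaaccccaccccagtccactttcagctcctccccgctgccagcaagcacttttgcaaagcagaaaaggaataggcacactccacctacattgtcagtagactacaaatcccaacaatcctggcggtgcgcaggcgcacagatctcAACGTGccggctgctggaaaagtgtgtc
Per1, chr11:69098699-69098948, plus strand, with an E-box at position -166: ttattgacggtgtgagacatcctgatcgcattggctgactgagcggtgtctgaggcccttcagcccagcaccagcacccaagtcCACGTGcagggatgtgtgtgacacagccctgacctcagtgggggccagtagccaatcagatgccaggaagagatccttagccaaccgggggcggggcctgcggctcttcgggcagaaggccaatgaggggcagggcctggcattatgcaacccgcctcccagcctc
Cry1, chr10:85185055-85185304, minus strand, with the E-box variant at position -79 and an E-box at position -60: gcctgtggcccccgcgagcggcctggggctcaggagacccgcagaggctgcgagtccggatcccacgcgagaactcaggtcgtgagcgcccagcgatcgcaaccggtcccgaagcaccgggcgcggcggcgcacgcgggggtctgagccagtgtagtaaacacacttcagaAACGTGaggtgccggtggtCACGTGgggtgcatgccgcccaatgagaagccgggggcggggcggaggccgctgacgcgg
Arntl, chr7:113207531-113207560, plus strand, a stretch just after the start with a ROR element core: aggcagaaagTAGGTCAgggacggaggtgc

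Cry2 held the E-box variant at position -166, and the windows of Dbp, Clock and Npas2 held none of these letters. Among all 32851 RefSeq start windows of this length, 7.15% held CACGTG, 4.68% CACGTT, 0.938% TTATGTAA and 2.61% TAGGTCA. TGACGTCA stood in 1.79% of windows and in none of the windows of the 9 genes. These matches describe the letters in these windows alone.

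The libraries held 5768208 to 11510521 reads on genes (mean 8937766). The lowest count behind any clock gene value was 43 reads, for Cry1, and the other 9 genes had at least 93 reads in every library. Of the markers of the labelled tissue, all 6 genes of hippocampal excitatory neurons were detected, with summed levels of 31696 to 69509 normalized counts. Of the suprachiasmatic nucleus markers in the table, Six6 had a median under 1 normalized count, and the summed list stayed between 79.4 and 251. One HD library, number 21 in the sample titles, stood apart. Its median correlation with the other libraries was 0.9550, and the next lowest was 0.9713. It had the highest astrocyte sum of the HD mice (54912, the other 4 at 17664 to 29731) and the lowest excitatory neuron sum (31696, the others at 46452 to 50998). It was also the lowest of the 5 HD mice for 7 of the 10 clock genes, so HD results that it moved are given with and without it. Ctr library 13, the shallowest of the 30, differed most from its replicates by counts, with a mean chi-square per gene of 56.88 to 61.99 in its 4 pairs and at most 40.16 in any other pair. In bulk tissue, fewer cells of a type and less RNA per cell cannot be told apart.

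All 10 genes were expressed in every mouse. Per kb of exon, Nr1d1 had the highest mean level with 204 ± 43.0 normalized counts (SD, n = 30) and lay above Per1 in 29 of 30 mice. Per1 (137 ± 34.8) and Cry2 (131 ± 10.9) did not separate, since Per1 was the higher of the 2 in 16 mice. Arntl followed with 106 ± 22.7, Clock with 81.6 ± 9.40 and Dbp with 69.8 ± 26.1, and Clock exceeded Dbp in only 19 mice. Per2 (48.7 ± 12.8) and Npas2 (46.8 ± 7.39) overlapped, with Per2 higher in 17 mice. Cry1 (33.2 ± 7.12) and Per3 (30.6 ± 9.38) were the lowest pair and also overlapped, with Cry1 higher in 19 mice. The spread between mice also differed from gene to gene. Dbp varied most, with a coefficient of variation of 37.4%, followed by Per3 with 30.7%, while Clock varied by 11.5% and Cry2 by 8.30%.

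Arntl (chromosome 7, 120350979 to 120457636, build NCBIM37), the activator without which the loop stops, had the lowest unadjusted p of the 10 genes in HD against Ctr and in Se_HD against HD. Its normalized counts in order of library number were 245, 311, 223, 353 and 285 in Ctr, 339, 381, 334, 327 and 359 in LD, and 245, 248, 190, 259 and 187 in HD. All 5 HD mice lay below the Ctr median, and 2 of them below every Ctr mouse, while the LD mice lay at the upper end of the Ctr mice or above it. In the selenium groups the counts were 357, 371, 280, 390 and 380 in Se_Ctr, 331, 348, 374, 366 and 211 in Se_LD, and 294, 332, 298, 453 and 236 in Se_HD. The 3 selenium groups overlapped. The HD mean was lower than the Ctr mean by a log2 difference of -0.32 (SE 0.13, limma unadjusted p = 0.0214, adjusted p = 0.472). Without library 21 the difference was -0.37. The exact permutation test gave p = 0.0952. Se_HD exceeded HD by 0.49 (SE 0.15, limma unadjusted p = 0.00241, adjusted p = 0.224), with 4 of 5 Se_HD mice above every HD mouse and an exact permutation p of 0.0317. Without library 21 it was 0.55 (limma adjusted p = 0.323). Se_Ctr exceeded Ctr by 0.34 (SE 0.15, limma unadjusted p = 0.0318, adjusted p of 1.00). None of these differences passed the adjustment over all genes.

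Clock (chromosome 5, 76639992 to 76733817), the partner that carries the acetyltransferase activity of the pair, was the steadiest of the activators. Its group means lay between 694 and 748 normalized counts. The 5 Se_HD mice lay at 726, 755, 739, 746 and 742, close together and inside the range of Ctr mice, which had 603, 698, 795, 727 and 916. LD mice spread from 517 to 889. The log2 differences of the 5 tested pairs of groups ran from -0.10 to 0.10, with SEs of 0.07 to 0.13. Npas2 (chromosome 1, 39250576 to 39420079), which can take the place of Clock in the forebrain, had group means of 197 to 239. HD mice had 163, 265, 260, 121 and 177, and 3 of them were below all Ctr mice, which had 231, 208, 238, 248 and 269. The HD difference was -0.33 (SE 0.17, limma adjusted p = 0.649). Without library 21, the 121, it was -0.17.

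Per1 (chromosome 11, 68908719 to 68923462), the Period gene that responds fastest to light and neuronal signals, was most variable among Ctr mice, with 1402, 1123, 482, 909 and 729 normalized counts. LD mice had 969, 601, 493, 807 and 538, and HD mice 686, 878, 820, 417 and 808. Both exposed groups lay within the range of Ctr except for the 417 of library 21. The HD difference was -0.32 (SE 0.25, limma adjusted p = 0.796), -0.13 without library 21 and -0.53 without Ctr library 13, the 482. In the selenium groups the 15 mice lay between 591 and 937 and their means between 720 and 807. Se_HD exceeded Se_Ctr by 0.17 (SE 0.10, limma adjusted p of 1.00), with a 95% confidence interval from -0.04 to 0.38.

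Per2 (chromosome 1, 93312561 to 93355907), a core repressor whose loss disturbs rhythms in mice, was the gene that drew attention to the clock. Ctr mice had 313, 371, 296, 329 and 406 normalized counts and LD mice 276, 263, 204, 282 and 151. All 5 LD mice were below all 5 Ctr mice, and the log2 difference was -0.57 (SE 0.20). This separation is the reason for the choice of genes and is given as a description. Of 20031 genes, 0.190% had every LD mouse below every Ctr mouse. HD mice had 229, 281, 296, 196 and 475, so that 4 lay below the lowest Ctr mouse and 1 above the highest. The HD difference from the same Ctr mice was -0.27 (SE 0.20), -0.14 without library 21 and -0.46 without library 27, the 475. Se_Ctr mice had 288, 267, 244, 309 and 211, of which 4 lay below every Ctr mouse. Se_Ctr differed from Ctr by -0.38 (SE 0.20). The Ctr mice of both differences are those of the comparison in which Per2 was noticed, so both are given as descriptions. Within the selenium diet, which that choice did not use, Se_LD (330, 225, 249, 241 and 251) differed from Se_Ctr by -0.03 (SE 0.18), with a 95% confidence interval from -0.39 to 0.34. Se_HD had 455, 270, 164, 331 and 326, spanning the whole range of the other selenium groups.

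Per3 (chromosome 4, 150377761 to 150418774), the Period gene with the 2 D-boxes printed above, had 450, 260, 413, 264 and 389 normalized counts in Ctr and 244, 224, 325, 196 and 175 in LD. LD and Ctr overlapped at 1 mouse, with a described difference of -0.60 (SE 0.24). HD mice had 352, 312, 406, 160 and 498 and covered more than the range of Ctr. The HD difference was -0.09 (SE 0.24, limma adjusted p = 0.950) with library 21, the 160, and 0.16 without it. Se_Ctr mice had 184, 233, 338, 191 and 302, and differed from Ctr by -0.51 (SE 0.24, limma unadjusted p = 0.0384, adjusted p of 1.00). Se_LD had 316, 214, 258, 283 and 395 and Se_HD 364, 224, 270, 189 and 390. They differed from Se_Ctr by 0.24 (SE 0.20) and 0.19 (SE 0.20), both with a limma adjusted p of 1.00.

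**Figure D1:**
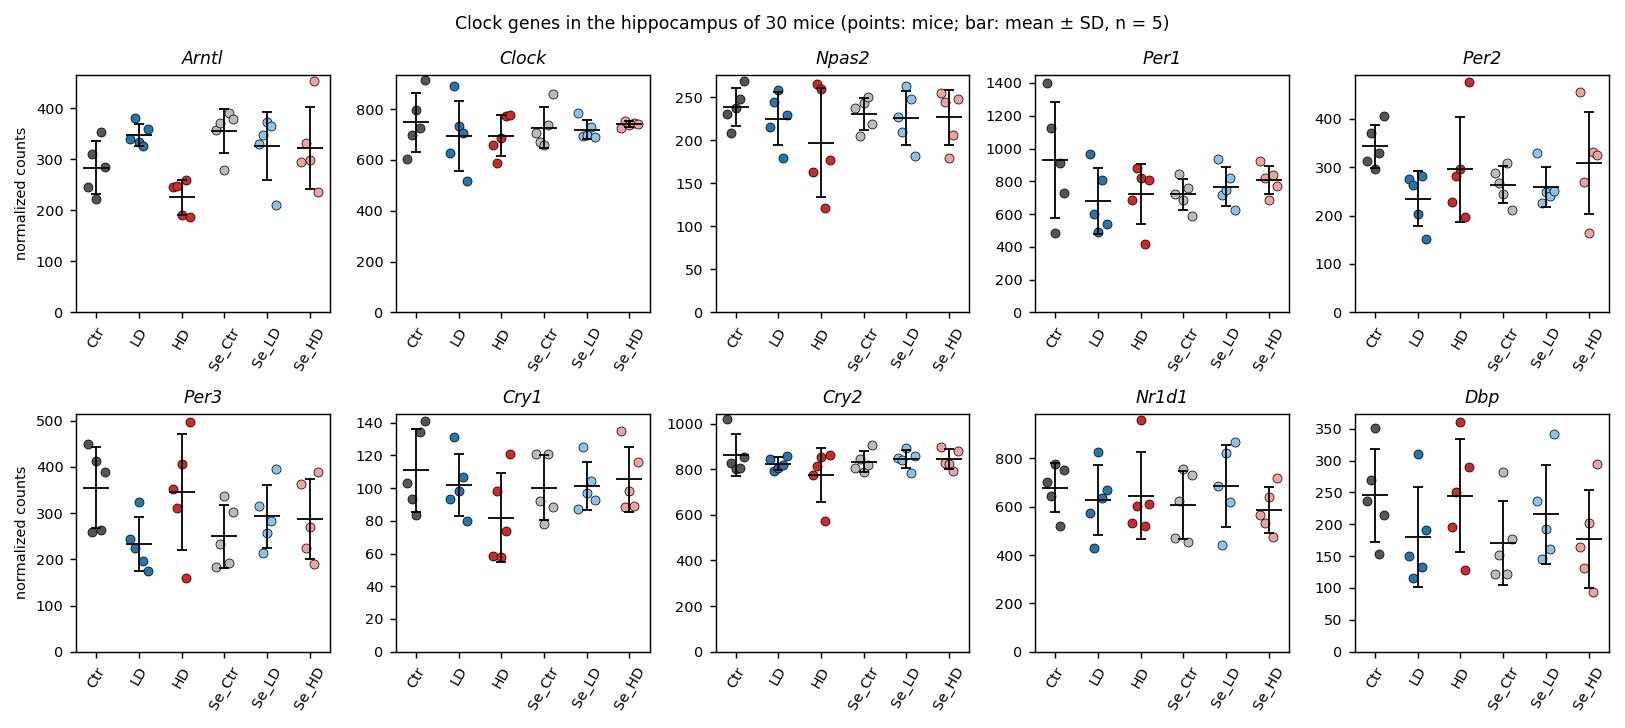
Normalized counts (y axis, from 0) of the 10 clock genes in the 6 groups (x axis). Points are mice and bars the mean ± SD of 5 mice. The 5 LD values of Per2 lie below the 5 Ctr values, and the 5 HD values of Arntl lie below the Ctr median of 285.

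Cry1 and Cry2 encode the Cryptochromes, the strongest repressors of the loop. Cry1 (chromosome 10, 84594447 to 84647799) had 103, 93.3, 83.4, 134 and 141 normalized counts in Ctr and 58.7, 98.3, 57.8, 73.5 and 121 in HD. Of the HD mice 3 lay below all Ctr mice, and the difference was -0.46 (SE 0.21, limma unadjusted p = 0.0366, adjusted p = 0.552), or -0.44 without library 21. Se_HD (135, 88.4, 98.1, 88.8 and 116) exceeded HD by 0.40 (SE 0.19, limma unadjusted p = 0.0390, adjusted p = 0.564), or by 0.38 without library 21. LD, Se_Ctr and Se_LD had mean counts of 102, 100 and 101. Cry2 (chromosome 2, 92243803 to 92274200) was the least variable of the 10 genes, and its group means lay between 775 and 861. The values that stood out were a Ctr mouse at 1020 and HD library 21 at 572. HD differed from Ctr by -0.16 (SE 0.11) and, without library 21, by -0.06. A non-coding gene overlaps Cry2 on the other strand, and whether the counting used strand is not given in the sources used here.

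Nr1d1 (chromosome 11, 98629246 to 98636647), the repressor of Arntl, had 702, 644, 776, 522 and 752 normalized counts in Ctr, 576, 429, 828, 635 and 671 in LD and 534, 602, 958, 521 and 613 in HD. In the selenium groups it had 469, 624, 755, 456 and 731 in Se_Ctr, 685, 442, 821, 618 and 868 in Se_LD, and 564, 533, 639, 476 and 719 in Se_HD. The highest values of Ctr, LD, HD and Se_Ctr were those of libraries 13, 14, 15 and 16. The differences of the 5 tested pairs of groups ran from -0.18 to 0.17, with SEs of 0.17 or 0.18. Dbp (chromosome 7, 52960458 to 52965525), the output activator, had 237, 269, 351, 154 and 215 in Ctr, 150, 116, 311, 133 and 191 in LD and 196, 250, 360, 128 and 290 in HD. It had 122, 151, 282, 122 and 177 in Se_Ctr, 236, 146, 193, 161 and 341 in Se_LD and 164, 131, 202, 94.4 and 295 in Se_HD. Mice of each group spread widely, and the groups overlapped throughout. Se_Ctr differed from Ctr by -0.54 (SE 0.29, limma adjusted p of 1.00) and Se_HD from HD by -0.48 (SE 0.29, limma adjusted p = 0.718). The latter was -0.70 without library 21 (limma unadjusted p = 0.0234, adjusted p = 0.596) and -0.29 without Se_HD library 24, the 94.4. Nr1d1 overlaps Thra and Dbp overlaps Sphk2 on the opposite strand.

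**Figure D2:**
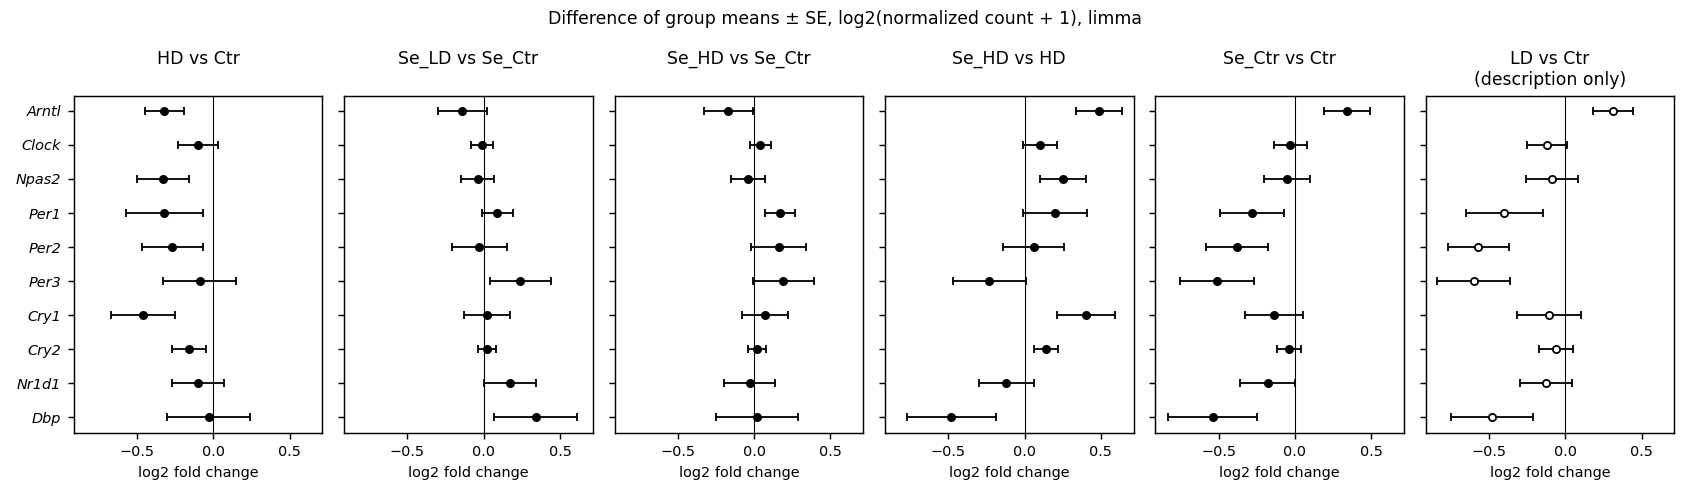
Log2 fold change (x axis) of each clock gene (y axis) in 6 comparisons, with points for the difference of group means and bars for ± 1 SE from limma. Open points mark LD vs Ctr, which is described and not tested. All 10 genes lie below 0 in HD vs Ctr, and in LD vs Ctr and Se_Ctr vs Ctr only Arntl lies above 0.

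In HD against Ctr, the comparison of the high dose on the diet without selenium, all 10 clock genes had a lower mean in HD. Their median log2 difference was -0.22, and the median over all genes was 0.01. The Ctr mice are those of the comparison in which Per2 was noticed. The count of lower means and the median include Per2, so they are given as descriptions. No clock gene passed an adjusted p of 0.05 with limma, where 0.130% of 20031 genes did, nor with edgeR or DESeq2 on the recovered reads. Arntl and Cry1 had a limma unadjusted p under 0.05, 2 of 10 genes, and 8.34% of all genes did. Without library 21 the median was -0.14, 8 of 10 were lower and 1 of 10 had a limma unadjusted p under 0.05, against 6.37% of all genes. The summed astrocyte markers were 17664 to 54912 in HD and 13971 to 16240 in Ctr, and 3 of the 5 had a limma unadjusted p under 0.05, or 2 without library 21, with median differences of 0.49 and 0.31. Microglial markers were 2448 to 4796 against 1970 to 2151, with 5 of 5 under 0.05, also without library 21. Of these markers 2 microglial genes and 1 astrocyte gene passed an adjusted p of 0.05 by limma, or 1 of each without library 21. All 5 choroid plexus markers were higher in mean in HD, with a median difference of 1.41, or 1.44 without library 21. The sums of inhibitory neuron markers were 3851 to 4819 against 4950 to 5933, with median differences of -0.37 and, without library 21, -0.23. The part of these cells in the clock gene values was not tested.

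Within the selenium diet no clock gene separated either dose from Se_Ctr beyond the spread between mice. In Se_LD against Se_Ctr the median difference was 0.02, with 6 genes higher and 4 lower in mean. None passed with limma, edgeR or DESeq2. No clock gene had a limma unadjusted p under 0.05, against 3.31% of 19679 genes. In Se_HD against Se_Ctr the median was 0.03, with 7 higher and 3 lower, again with none past the adjusted threshold with the 3 tools and none at a limma unadjusted p under 0.05, against 4.19% of genes. The 95% confidence interval of the Se_HD difference of Dbp (0.02) ran from -0.51 to 0.56, while that of Cry2, also 0.02, ran from -0.10 to 0.14.

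Between the diets, Se_HD against HD gave 7 clock genes a higher mean in Se_HD and 3 (Per3, Nr1d1 and Dbp) a lower one, with a median difference of 0.12. Without library 21 it was 6 and 4, since Per2 went from 0.06 to -0.07, and the median was 0.03. None passed an adjusted p of 0.05 with limma, where 0.327% of 21383 genes did, nor with edgeR or DESeq2. Arntl and Cry1 had an unadjusted p under 0.05, against 8.38% of genes. Without library 21 there were 3, namely Arntl, Dbp and Per3, with differences of 0.55, -0.70 and -0.48, against 7.39% of all genes in that fit. For Per3 the difference was -0.23 over all mice and -0.07 without HD library 27. The astrocyte and microglial lists differed here too, with 4 of 5 genes in each at a lower level in Se_HD and a limma unadjusted p under 0.05. Over all mice 3 of the microglial genes and 1 astrocyte gene passed the adjustment by limma. So did 1 inhibitory neuron gene, which was higher in Se_HD. Selenium alone, Se_Ctr against Ctr, gave 9 of 10 genes a lower mean in Se_Ctr and Arntl a higher one. This count includes Per2 and uses the Ctr mice against which it was noticed, so it is a description. Arntl and Per3 had an unadjusted p under 0.05, against 4.00% of genes, and none passed after adjustment with any of the 3 tools. All 3 blood markers were lower in mean in Se_Ctr (median -0.85), 2 of them at a limma unadjusted p under 0.05. The 5 choroid plexus markers were all higher in mean (median 0.86), none at a limma unadjusted p under 0.05. The part of these tissues in the clock gene values was not tested. LD against Ctr shares these Ctr mice, and the described differences there were 0.31 for Arntl, -0.60 for Per3 and -0.48 for Dbp, beside 0.34, -0.51 and -0.54 for Se_Ctr. The effect of HD differed between diets at an unadjusted p under 0.05 for 1 gene, Cry1 (difference of log2 differences 0.54, SE 0.26, limma adjusted p = 0.997), against 4.77% of genes, and for none after adjustment with any of the 3 tools. The difference, which also draws on those Ctr mice and on Per2, was positive for all 10 genes, with a median of 0.23. Without library 21 it was -0.15 for Dbp and -0.00 for Nr1d1, and the median was 0.16. In that fit no clock gene had a limma unadjusted p under 0.05, against 4.10% of all genes.

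A score, called the phase score after the textbook phases of its genes, was taken in each mouse. Its genes did not all move together among mice, as the correlations further on show, so it is a difference of gene means and not a measured phase. It is the mean log2 value of Per1, Per2, Per3, Nr1d1 and Dbp minus that of Arntl, Clock and Npas2, centred on the mean of the 30 mice, so a mouse high in Dbp and low in Arntl has a positive score. Being built from the chosen genes it carries no test. Ctr mice had scores of 0.61, 0.31, 0.30, -0.16 and 0.10, and LD mice -0.04, -0.66, -0.08, -0.11 and -0.33. HD mice had 0.24, 0.25, 0.63, -0.27 and 0.76, the -0.27 being library 21. Se_Ctr mice had -0.44, -0.13, 0.19, -0.49 and -0.29, Se_LD 0.14, -0.36, -0.15, -0.22 and 0.56, and Se_HD 0.14, -0.32, -0.07, -0.49 and 0.36. All 5 LD mice were below 0, and 4 of 5 Ctr and 4 of 5 HD mice were above it. The group means were 0.23 ± 0.29 (SD, n = 5) in Ctr, -0.24 ± 0.26 in LD, 0.32 ± 0.40 in HD, -0.23 ± 0.27 in Se_Ctr, -0.00 ± 0.36 in Se_LD and -0.07 ± 0.34 in Se_HD. The difference of LD from Ctr was -0.47, and it was -0.86 when each arm of the score was the median instead of the mean of its genes. That median is the level of the middle gene of each arm, Per2 among them, so the -0.86 is another measure. The order of the means did not follow the dose.

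Of the 24 other clock genes listed, 1 passed the adjusted threshold in any of the 6 tested comparisons. It did so in Se_HD against HD, where 0.327% of all genes passed. Bhlhe41 (DEC2), a repressor that competes for E-boxes, was lower in Se_HD than in HD, with 535 ± 94.3 against 844 ± 261 normalized counts (SD, n = 5), a log2 difference of -0.63 (SE 0.14) and an adjusted p of 0.0304 by limma. The call was lost without library 21 (-0.46, limma adjusted p = 0.188), in which the HD maximum of 1279 lay. The 13 genes of the second loop and output had 11 lower means in HD than in Ctr, with a median of -0.21, or -0.14 without library 21. Wee1, a cell cycle kinase gene driven by E-boxes, had 39.4 to 58.5 counts in HD and 60.1 to 95.3 in Ctr, with no overlap, and 0.734% of all genes were likewise lower in every HD mouse. Its difference was -0.70 (SE 0.17, limma adjusted p = 0.125) and -0.65 without library 21. Hlf, a relative of Dbp that binds the same D-boxes, had a difference of -0.78 (SE 0.24, limma adjusted p = 0.237), which was -0.47 without library 21. The 11 genes of the post-translational list had a median of -0.01 in HD against Ctr, with and without library 21. Among them Csnk1e, a kinase that marks Period proteins for decay, had a difference of -0.23 (SE 0.10, limma unadjusted p = 0.0370, adjusted p = 0.553), or -0.18 without library 21.

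Other listed genes were among the 3 with the lowest p in a tested comparison. Rora and Rorb, which activate Arntl through ROR elements, differed between Se_LD and Se_Ctr by 0.46 (SE 0.14) and 0.26 (SE 0.10), each with a limma adjusted p of 1.00. In that comparison all 4 thalamus markers were also higher in mean in Se_LD, with a median of 0.77. Of them 2 had a limma unadjusted p under 0.05, against 3.31% of all genes. The part of thalamic tissue in the values of Rora and Rorb was not tested. Nfil3, a repressor that binds D-boxes, exceeded HD in Se_HD by 0.60 (SE 0.23, limma adjusted p = 0.409). Nr1d2, the sister of Nr1d1, and Ciart (listed as Gm129) were lower in mean in Se_Ctr than in Ctr by differences of -0.47 and -0.72. Timeless and Tipin, partners at replication forks, had Se_HD differences from Se_Ctr of -0.30 and -0.28. None of these passed the adjustment over all genes.

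The 10 genes were next compared among mice of the same group, which does not use any difference between treatments. The group mean was subtracted from each log2 value, and the 45 pairs were tested over 30 mice with 100000 permutations within groups. Of these pairs 8 had an adjusted p under 0.05, 5 with positive and 3 with negative r. The 3 negative pairs all held Arntl, set against Dbp, Per3 and Nr1d1. Of the 5 positive pairs 4 joined Per3 to Dbp, Nr1d1 and Cry2, and Nr1d1 to Dbp, and the last was Per1 with Per2.

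Dbp and Nr1d1 had the closest relation, with a Pearson r of 0.83 and a Spearman rho of 0.86 (both with a permutation p of 1e-05, the smallest possible here, adjusted 0.000225 and 0.00045). Without the 2 mice farthest from the median of Nr1d1, r was 0.81. Per3 rose with Dbp (r = 0.78, rho = 0.75, permutation p = 4e-05 and 8e-05, adjusted 0.00045 and 0.0009), with r = 0.75 without the 2 farthest mice. Per3 also rose with Nr1d1 (r = 0.64, rho = 0.68, adjusted permutation p = 0.00675 and 0.00202), with r = 0.68 without the 2 farthest mice. Arntl ran against all 3. Its r was -0.79 with Dbp (rho = -0.71, permutation p = 2e-05 and 5e-05, adjusted 0.0003 and 0.0009), -0.72 with Per3 (rho = -0.74, adjusted permutation p = 0.000225 and 0.0009) and -0.61 with Nr1d1 (rho = -0.63, adjusted permutation p = 0.00414 and 0.00202). Without its 2 farthest mice these were -0.76, -0.68 and -0.59. A mouse high in Dbp thus tended to be low in Arntl within its own treatment group.

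The 2 diets gave the same signs for these 6 pairs. Over the 15 mice without selenium r was -0.67 for Arntl with Dbp and 0.83 for Nr1d1 with Dbp, and over the 15 mice with selenium it was -0.88 and 0.83. For Per3 with Dbp it was 0.68 and 0.89, for Per3 with Nr1d1 0.49 and 0.80, for Arntl with Per3 -0.71 and -0.78, and for Arntl with Nr1d1 -0.67 and -0.58. Without library 21 all 6 kept an adjusted permutation p under 0.05, with r from -0.79 to 0.83. Within sets of 6 library numbers, described further on, Arntl with Per3, Arntl with Nr1d1 and Per3 with Nr1d1 no longer passed.

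**Figure D3:**
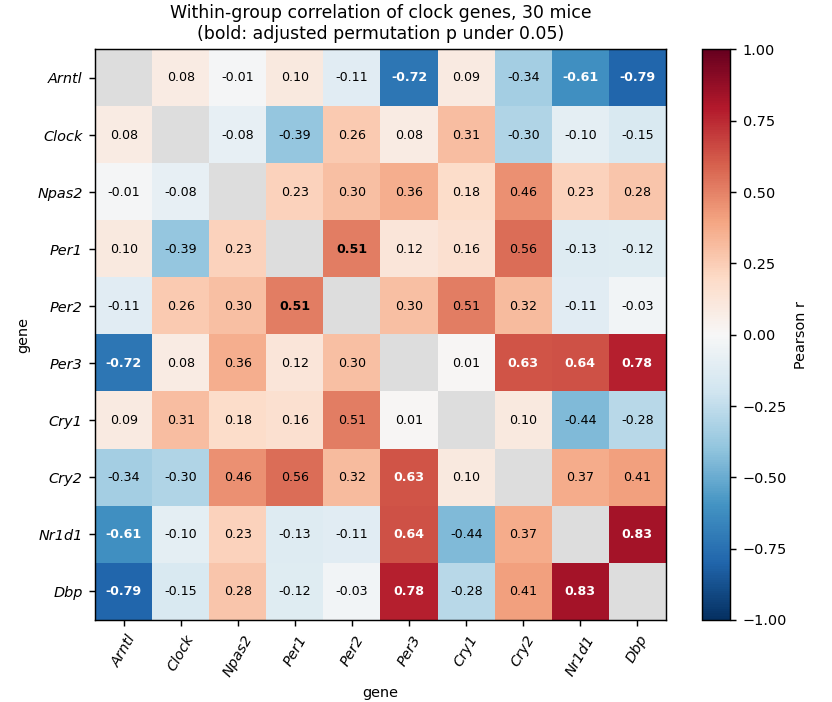
Pearson r (colour and number) for each pair of clock genes (both axes) over 30 mice after the group mean was subtracted. Bold marks the 8 pairs with an adjusted permutation p under 0.05, among them the block of Per3, Nr1d1 and Dbp and their negative values with Arntl.

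Clock and Npas2 did not follow Arntl, with r = 0.08 (rho = 0.05) and -0.01 (rho = 0.01) and permutation p = 0.623 and 0.948. Per1 and Per2 rose together (r = 0.51, rho = 0.57, adjusted permutation p = 0.0205 and 0.0185, r = 0.54 without the 2 farthest mice) but neither followed Dbp, with r = -0.12 for Per1 and -0.03 for Per2 (0.33 and 0.24 within sets of 6 library numbers, described further on). The r of Per3 was 0.12 with Per1 and 0.30 with Per2, but within sets these were 0.42 and 0.52, above its 0.36 with Nr1d1. Per3 with Cry2 had r = 0.63 (adjusted permutation p = 0.0251), but rho was 0.46 (adjusted permutation p = 0.112). Without library 21, r was 0.40 (adjusted permutation p = 0.233), so this pair rests on that mouse. Per2 with Cry1 had r = 0.51 and rho = 0.44, adjusted permutation p = 0.0559 and 0.164.

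The genes outside the 10 whose levels followed each clock gene most closely among mice were found by the highest Pearson r over the 30 mice, among 11096 genes that averaged 50 or more normalized counts. They are given as a description with no test. For Per3 they were Tef (r = 0.91, and 0.87 without library 21), Nr1d2 (0.85) and Klf11 (0.76). Tef encodes a relative of DBP that binds the same D-box. For Dbp they were Nr1d2 (0.77), Sord (0.71), the sorbitol dehydrogenase gene, and Tmem25 (0.70). For Arntl they were Hnrpll (0.70), an RNA-binding protein gene, Klf10 (0.66), a zinc finger factor gene, and Pno1 (0.65). The highest value for Nr1d1 was Evi5l at 0.72, followed by Pacs1 (0.70) and Ap1b1 (0.69).

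Among the listed clock genes, Nfil3 had r = 0.62 with Arntl, -0.74 with Dbp and -0.70 with Nr1d1, the opposite of the pattern of Nr1d2, whose r with Arntl was -0.70. Over all genes the central 95% of r with Dbp lay between -0.44 and 0.42. Nfil3 thus went with Arntl in these mice, and Nr1d2, Tef and Usp2 (r = 0.68 with Nr1d1) with the opposite arm. The post-translational list lay near the middle, with medians of r between -0.11 and 0.19 over the 10 clock genes.

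**Figure D4:**
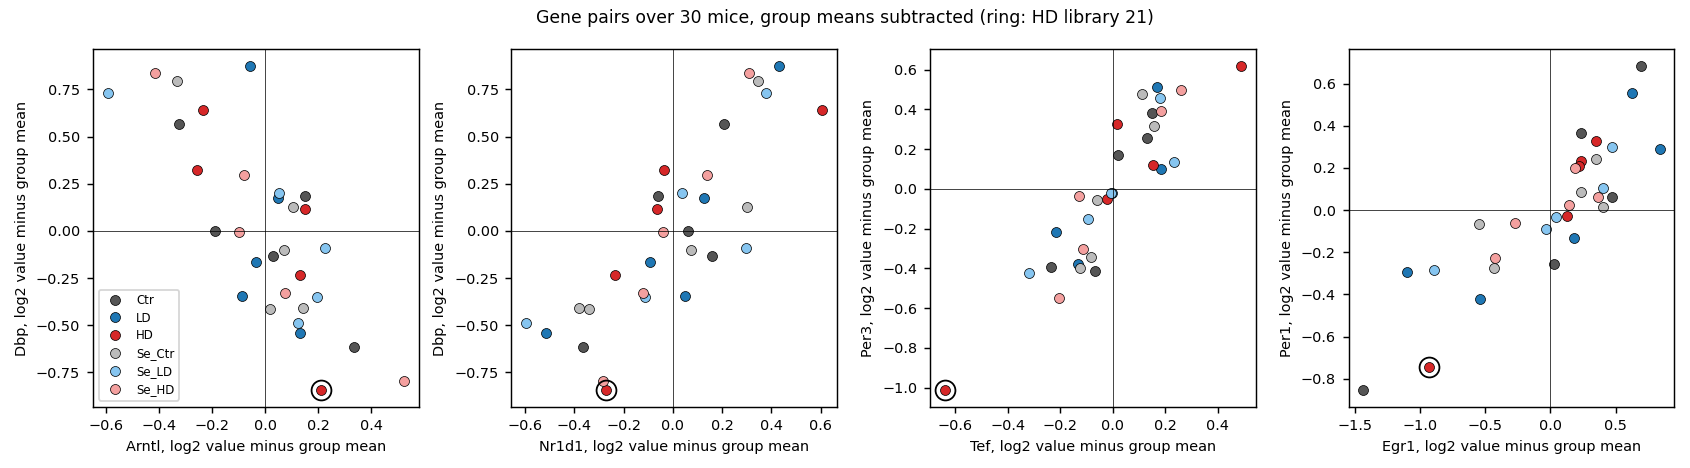
Log2 value minus group mean of 4 pairs of genes, each point a mouse coloured by group and the ring marking HD library 21. From left to right the pairs are Arntl and Dbp (r = -0.79), Nr1d1 and Dbp (0.83), Tef and Per3 (0.91) and Egr1 and Per1 (0.87).

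Per1 had different company. Its closest genes were Nr4a1 (r = 0.87), Egr1 (0.87) and Arc (0.84), which are immediate early genes switched on within minutes of neuronal firing. All 8 listed immediate early genes followed Per1, with r from 0.70 for Fos to 0.87 for Nr4a1 and a median of 0.82, while the central 95% of all genes lay between -0.54 and 0.58. Without library 21 r was 0.86 with Nr4a1 and 0.85 with Egr1. In Ctr, Egr1 ran from 669 to 2940 normalized counts and Arc from 237 to 2754, a wider span than in any other group. The median r of the same list was 0.35 with Per2, -0.12 with Per3 and -0.42 with Dbp. In the treatment comparisons the immediate early list had a median of -0.60 in HD against Ctr, with 2 of 8 genes at a limma unadjusted p under 0.05, both lower in HD, against 8.34% of all genes, and none after adjustment. Without library 21 the median was -0.40, with none of 8 under 0.05.

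The 6 genes that answer to glucocorticoids, of which Zbtb16 and Fkbp5 were the most abundant, had a median r of 0.28 with Per1, from -0.07 for Fkbp5 to 0.67 for Tsc22d3, and of 0.18 with Per2, up to 0.65 for Zbtb16. Their median log2 differences in the 6 tested comparisons lay between -0.15 and 0.20, with no gene past the adjusted threshold, and the described median in LD against Ctr was -0.20. Temperature-responsive genes, of which Hsph1 and Hspa8 were the most abundant, had median r between -0.10 and 0.34 with the 10 clock genes, but single members went both ways. Hspa1b had r = 0.70 with Per1 and 0.54 with Per2, and Hsph1 0.56 with Arntl and -0.66 with Dbp. Per2 was followed most closely by Dio2 (0.77), which makes active thyroid hormone, Nxf1 (0.74) and Spry4 (0.74). Clock was followed by Ncoa2 (0.91), Snx13 (0.90) and Gcap14 (0.89), and Npas2 by Arhgap32 (0.77), 6330527O06Rik (0.75) and Slmo1 (0.71). For Clock many genes had such values, since the central 95% of all genes lay between -0.66 and 0.71. Cry1 was followed by Srsf1 (0.65), Slc25a37 (0.64) and Zfp263 (0.63), and Cry2 by Faim2 (0.86), Cygb (0.85) and Prkcz (0.83). The Faim2 value was 0.63 without library 21.

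The sample titles carry library numbers from 1 to 30, and each set of 6 consecutive numbers holds each group once, in the same order. What the number stands for is not given in the sources used here, and place within a set and treatment cannot be told apart. No trend along the numbers passed the test. The r of group-centred levels with library number ran from -0.45 for Per1 (rho = -0.47, adjusted permutation p = 0.242 and 0.191) to 0.30 for Nr1d1, and without libraries 1 and 30 that of Per1 was -0.38. After the data were seen, an F test of the 5 sets with one coefficient per group was fitted to all genes. No gene passed an adjusted p of 0.05 by limma, and 4.08% of 21383 genes had an unadjusted p under 0.05. Without libraries 13 to 18 the immediate early gene Fos passed, and without HD library 21 Egr2 did, each as the 1 gene called. No clock gene passed in either, and in the fit of all libraries 5 of the 10 clock genes had an unadjusted p under 0.05.

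Dbp had the lowest p of all genes in this fit (limma unadjusted p = 5.65e-06, adjusted p = 0.121), Nr1d1 ranked 3 (2.27e-05, adjusted p = 0.156) and Per3 ranked 22 (0.000707, adjusted p = 0.687). The limma unadjusted values for Arntl and Per1 were 0.00832 and 0.0285, and neither passed the adjustment over all genes. For Dbp the mean deviation from the group mean was 0.51 (log2) in libraries 13 to 18, where 5 of 6 mice were above their group mean, and 0.34 in libraries 25 to 30, where 5 of 6 were. It was -0.56 in libraries 19 to 24, where all 6 were below. Per3 was below in all 6 mice of libraries 19 to 24 (mean -0.42) and of libraries 7 to 12 (mean -0.21). Nr1d1 was above in all 6 mice of libraries 13 to 18 (mean 0.34). Arntl showed the reverse, with means of -0.14 in libraries 13 to 18 and 0.22 in libraries 19 to 24, where 5 of 6 mice were above. Sets accounted for 66.2% of the within-group sum of squares of Dbp, 64.2% of that of Nr1d1, 50.5% of Per3 and 42.9% of Arntl. The shares were 36.3% for Cry2, 32.3% for Per1, 17.7% for Cry1, 13.8% for Per2, 12.0% for Npas2 and 6.99% for Clock. Some share falls to 5 sets by chance, and the share over all genes was not computed.

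**Figure D5:**
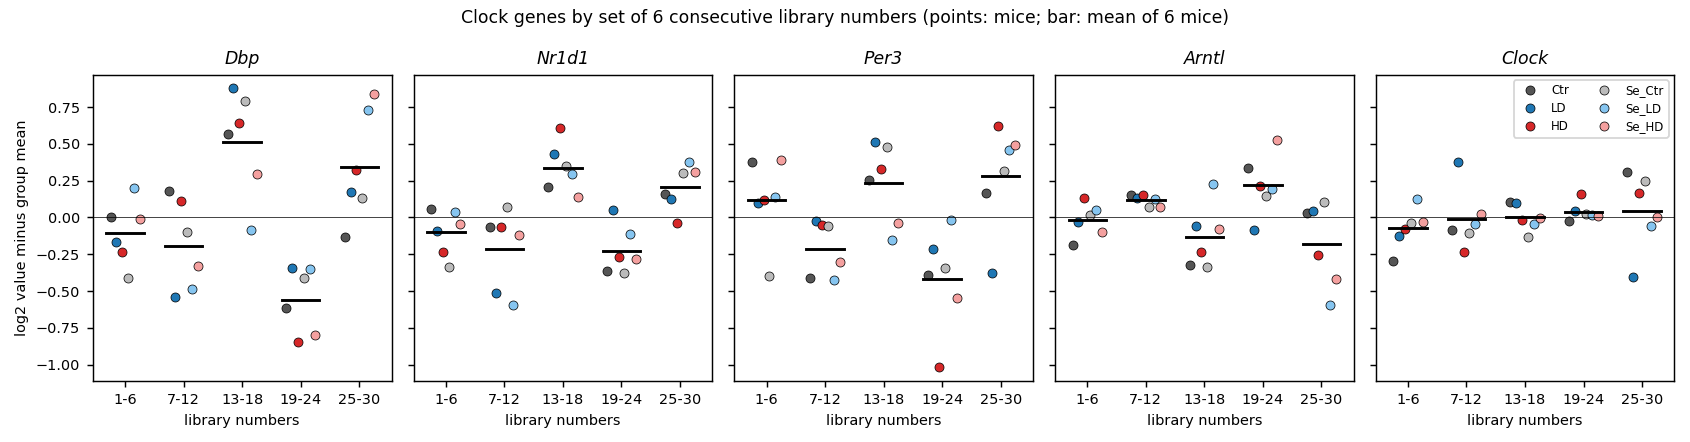
Log2 value minus group mean (y axis) of 5 clock genes by set of 6 consecutive library numbers (x axis). Points are mice, coloured by group, and bars are the mean of a set. Dbp, Nr1d1 and Per3 are low and Arntl high in libraries 19 to 24, and Clock shows no such steps.

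In the same fit, where 4.08% of all genes had a limma unadjusted p under 0.05, 7 of 8 immediate early genes did, with Fos ranked 2 (1.35e-05, adjusted p = 0.144). So did 4 of the 13 second loop and output genes, 3 of the 6 temperature-responsive genes and 2 of the 6 glucocorticoid-responsive genes. The same held for 3 of the 4 thalamus markers, 1 of the 4 striatum markers and 1 of the 3 blood markers. All were without passing the adjustment. None of the 11 post-translational clock genes had an unadjusted p under 0.05, nor had any of the 5 astrocyte, 5 microglial and 6 excitatory neuron markers. Without libraries 19 to 24 the limma unadjusted value was 0.00107 for Dbp and 0.0622 for Arntl, and without libraries 13 to 18 it was 0.00237 for Nr1d1. Within sets, after the mean of each set was also subtracted, Dbp kept its relations with Arntl (r = -0.64, adjusted permutation p = 0.0165), Per3 (0.61, adjusted permutation p = 0.0165) and Nr1d1 (0.60, adjusted permutation p = 0.0178). Those of Arntl with Per3 (-0.50, adjusted permutation p = 0.0816) and with Nr1d1 (-0.30, 0.277), of Per3 with Nr1d1 (0.36, 0.264) and with Cry2 (0.47), and of Per1 with Per2 (0.45, 0.187) no longer passed. Per1 with Cry2 passed within sets (r = 0.79, adjusted permutation p = 0.00450), where it had r = 0.56 (adjusted permutation p = 0.0679) without the set and 0.08 without libraries 1 and 21.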

How the data were processed

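The authors made one stranded library per mouse from hippocampal RNA and sequenced single 75 bp reads. Reads were trimmed with TrimGalore, aligned with HISAT2 to NCBIM37 and counted with featureCounts. The deposited values are signal values, namely read counts that the authors divided by DESeq2 size factors after removing genes with a row sum under 10. All values (100%, tolerance 0.01) were whole reads after multiplication by one factor per library. Gene positions and symbols came from the annotation of the same build. Promoter windows came from RefSeq.

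The log2 of each value plus 1 was fitted with limma 3.58.1 with a variance trend, over the 15 mice of a diet or over all 30 where diets were compared. Genes with a sum of at least 10 were tested, and p-values were adjusted over all of them by the method of Benjamini and Hochberg. Exact permutation tests of 5 mice against 5 were two-sided, with a smallest p of 0.00794. Correlations used two-sided permutations within groups, adjusted over 45 pairs or 10 genes. Replicate libraries differed by more than counting noise. On counts simulated for Se_HD against Se_Ctr over 19395 genes, limma recovered 89.5% of 200 changes of 1 on the log2 scale, with 9 false calls. The clock gene differences between groups were all smaller than 1, and recovery of smaller changes was not simulated. Alternatives were other pseudocounts, filters, scalings, edgeR 4.0.16, DESeq2 1.42.0, the set as a block and leaving out each mouse. The clock genes and the other lists were chosen with earlier results of these data known. Named genes are the 10 clock genes, the listed pathway genes that passed or had the 3 lowest p, the 3 most alike genes of each, and the 2 most abundant of each side list. The authors' published comparisons were not used. The limma p-values set a difference between groups, or between sets, against the spread between mice. Permutation p-values of correlations set r against shuffles of mice within groups. Those within sets shuffled set-centred values across sets and are approximate.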

Additional observations from a re-analysis of the deposited data

Results flagged for a closer look

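In 6 of 66 groups of 5 mice (10 genes and the phase score in 6 groups), 1 mouse lay farther from its group than Dixon's 95% critical value of 0.71 allows, and chance alone flags about 1 in 20 groups. Arntl was low in 2 selenium mice, at 280 normalized counts in Se_Ctr library 16 (the other 4 at 357 to 390) and at 211 in Se_LD library 29 (the others at 331 to 374). Those mice had the highest Dbp of their groups, at 282 and 341. Per2 was high in Se_LD library 5, at 330 against 225 to 251. Cry2 was high in Ctr library 1, at 1020 against 800 to 854, and low in HD library 21, at 572 against 776 to 864. Nr1d1 was high in HD library 15, at 958 against 521 to 613. No clock gene had every mouse moving one way on one diet and the opposite way on the other.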

How the results depend on the processing

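No clock gene passed an adjusted p of 0.05 in any tested comparison under any of the 21 alternatives per comparison (31 for the effect of HD by diet). The lowest adjusted p was 0.0684, for Arntl in Se_HD against HD with DESeq2, where the alternatives ranged from 0.0684 to 0.527. Differences whose sign changed when 1 mouse was left out were all at most 0.12 in size. Leaving out each mouse in turn gave -0.25 to 0.16 for Per3 and -0.19 to 0.18 for Dbp in HD against Ctr. In Se_LD against Se_Ctr it gave -0.04 to 0.05 for Clock, -0.10 to 0.04 for Npas2, -0.12 to 0.03 for Per2 and -0.06 to 0.10 for Cry1. In Se_HD against Se_Ctr it gave -0.08 to 0.04 for Npas2, -0.02 to 0.15 for Cry1, -0.01 to 0.05 for Cry2, -0.13 to 0.05 for Nr1d1 and -0.19 to 0.22 for Dbp. In Se_HD against HD it gave -0.10 to 0.27 for Per2 and -0.19 to 0.04 for Nr1d1, and in Se_Ctr against Ctr -0.11 to 0.04 for Clock and -0.07 to 0.02 for Cry2. In the effect of HD by diet it gave -0.03 to 0.22 for Nr1d1 and -0.15 to 0.26 for Dbp. The phase score difference of LD from Ctr was -0.47, and -0.86 with the median over the genes of each arm of the score. The log2 levels were not centred per gene, so that median is the level of the middle gene of an arm. By group means this was Arntl in one arm, and Per3 in Ctr and Per2 in LD in the other. The -0.86 is therefore another measure and not a larger difference of the same score. With the set of library numbers as a replicate block, 4 in place of 8 pairs passed, 3 of them the same pairs and the other Per1 with Cry2. Over all genes, 18 of 75 pairs of libraries of one set had a correlation over 0.1, with a median of -0.03. Of 300 pairs of libraries from other sets and other groups, 75 did, with a median of -0.00. A check over all genes cannot tell whether the mice of a set share something that moves only a few genes, such as the clock genes. The block changed no call of a clock gene between treatments. The call of Bhlhe41 in Se_HD against HD was lost under limma without the trend, with only those groups in the fit, and when any of 5 single mice was left out, and its adjusted p ranged from 0.00186 to 0.419 over the 21 alternatives. With 5 mice a group the 95% confidence intervals of limma limit what could be seen, and that of Dbp in Se_HD against Se_Ctr ran from -0.51 to 0.56.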
